A study of Mus musculus with 45 samples.

Results

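The fatty acid binding proteins Fabp1 to Fabp7 were followed in the liver, kidney and brain of mice fed 5 diets. The members were the rows of the deposited expression table named Fabp1, Fabp2, Fabp3, Fabp4, Fabp5, Fabp6 and Fabp7, and all 7 were present, of 22080 genes in all. Fatty acid binding proteins are small cytosolic carriers that hold a fatty acid or another lipid inside a barrel-shaped pocket and bring it to membranes, to oxidation or to nuclear receptors. Each is best known from 1 tissue: Fabp1 from liver, Fabp2 from intestine, Fabp3 from heart and muscle, Fabp4 from adipocytes, Fabp5 from epidermis, Fabp6 from ileum, where it binds bile acids, and Fabp7 from the glia of the developing brain. In liver, Fabp1 is the abundant carrier of hepatocytes, and Fabp4 and Fabp5 are also carried by macrophages and endothelial cells.

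Male C57BL/6 mice of 7 weeks were given the standard AIN-93 diet (Control), that diet with 0.5% cholesterol (HCD), or HCD with 1 of 3 additions, and were sacrificed on day 43. HCD+Gl-1 held 1% of an extract of the mushroom Ganoderma lucidum, HCD+Gl-2 held 1% of an extract of the mushroom grown on a substrate with 10 mM acetylsalicylic acid, and HCD+Sim held simvastatin, an inhibitor of cholesterol synthesis, at 0.03 g per 100 g of diet. Each diet group had 8 mice, and RNA of whole tissue was pooled before it was put on Affymetrix mouse gene arrays. By the study's methods, pool A combined 4 mice, pool B the remaining 4, and pool C combined both pools again. The 3 arrays per group therefore stand on 2 independent pools. The p-values measure the spread between arrays of a group, not between mice. They count pool C as a replicate of its own and may therefore be too small. Each gene has 1 estimate of the spread between arrays, shared by all tissues. Where a gene varied more in liver than elsewhere, its liver p-values may be too small and its intervals too narrow.

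The 45 arrays (15 per tissue) had medians between 6.76 and 6.92 on the log2 scale, and arrays of a group correlated at 0.9846 to 0.9974. The labelled tissues fitted their markers: the mean log2 level of 12 hepatocyte genes was 13.19 to 13.32 in liver and at most 7.63 elsewhere, that of 12 kidney tubule and glomerulus genes 11.24 to 11.4 in kidney and at most 6.36 elsewhere, and that of 12 neuron genes 11.18 to 11.35 in brain and at most 6.32 elsewhere. All values below are normalized log2 expression, and a difference of 1 is a doubling. A gene was called different where the log2 fold change was over 0.7 in size and the adjusted p was at most 0.05, by limma over all 22080 genes. Levels of different genes come from different probes, so the members are not compared with each other by level. The place of a member among all genes of the table, given for Fabp1 and Fabp6, is therefore only rough. In whole tissue, fewer cells of a type and less RNA per cell cannot be told apart.

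The 7 genes differed in their order of tissues. Fabp1 and Fabp2 were high in liver and low in kidney and brain. Fabp3 was higher in kidney and brain than in liver, Fabp4 was highest in kidney and Fabp7 in brain. Fabp5 was highest in the liver of Control mice, and Fabp6 was low in all 3 tissues. On the Control diet, 6 of 7 members were called between liver and kidney, where 16.8% of all genes were called, 6 of 7 between liver and brain, where 32.7% of all genes were called, and 3 of 7 between kidney and brain, where 30.0% were called.

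**Figure D1:**
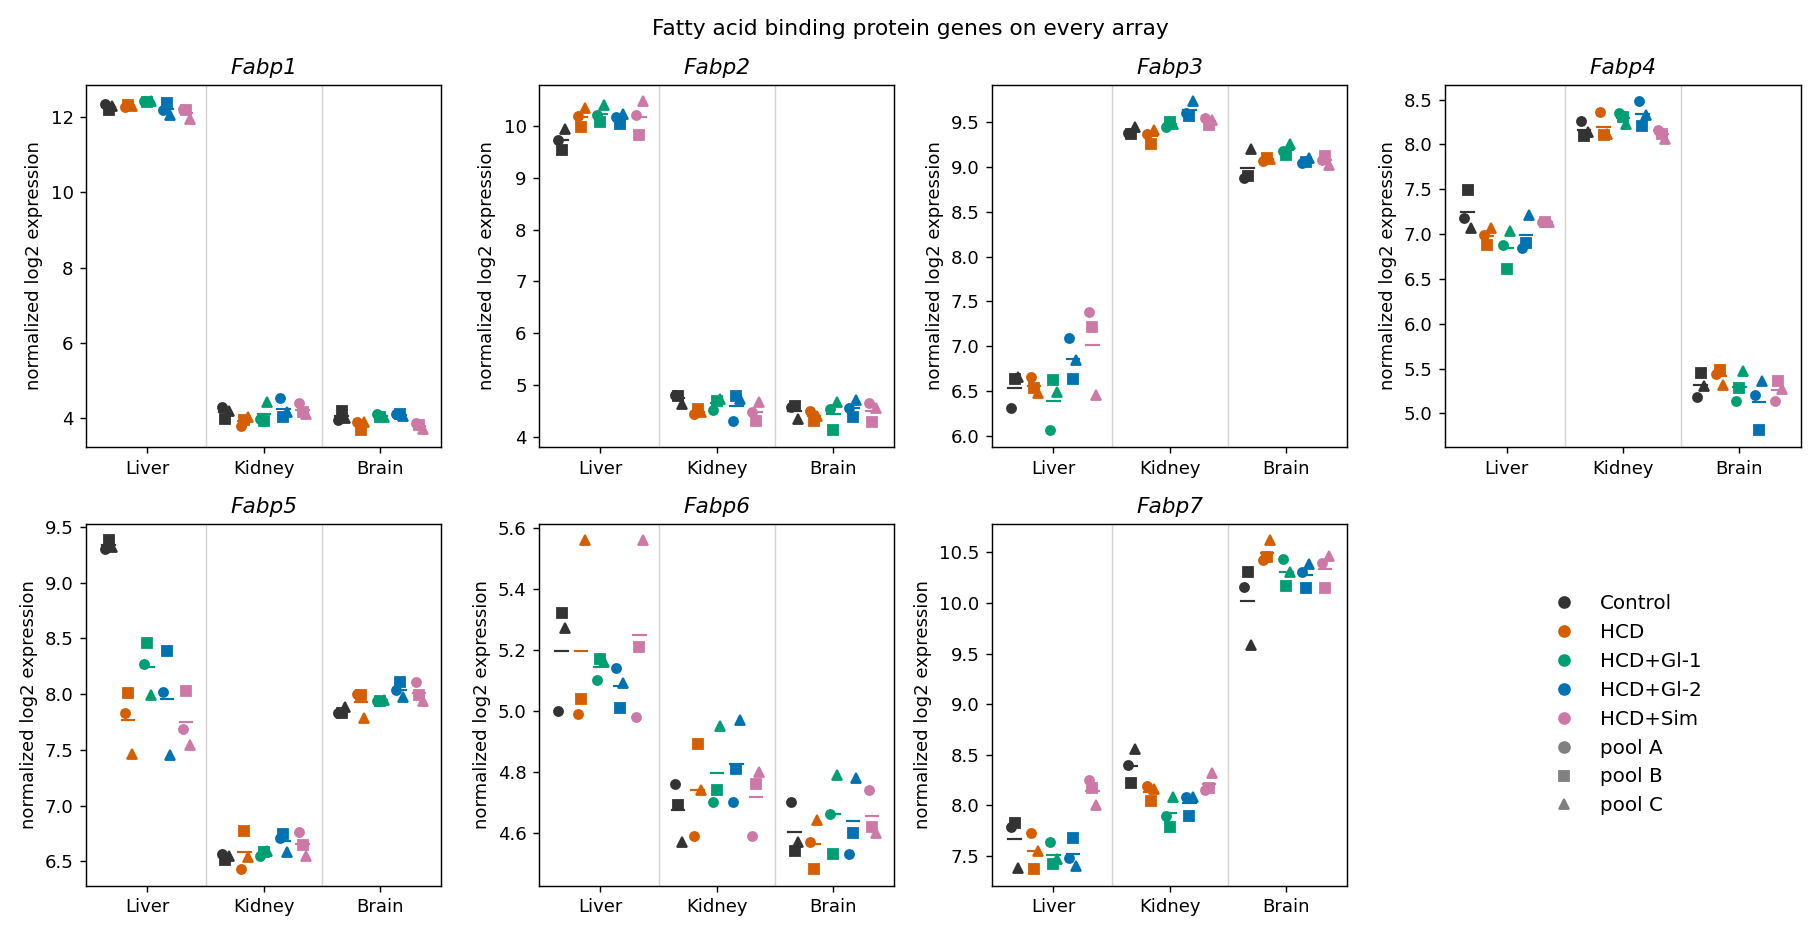
Normalized log2 expression (y axis) of the 7 genes on each of the 45 arrays, by tissue (x axis). Colours mark the diet group, symbols the pool and short lines the group mean; each panel has its own scale. Fabp1 lay at 11.95 to 12.42 in liver and at 4.52 or below elsewhere, and Fabp5 in liver was the one member whose Control arrays stood clear of every other diet.

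Fabp1, the main fatty acid carrier of hepatocytes, ranged from 11.95 to 12.42 over the 15 liver arrays, above 99.4% of the genes of the table. In kidney it lay at 3.78 to 4.52 and in brain at 3.67 to 4.2, above 6.72% and 5.96% of genes. On the Control diet it was 8.13 log2 units higher in liver than in kidney (SE 0.11, adjusted p = 9.28e-39) and 8.23 higher than in brain (SE 0.11, adjusted p = 3.49e-39). Fabp2, the intestinal member, followed the same order at 9.54 to 10.47 in liver, 4.31 to 4.82 in kidney and 4.13 to 4.72 in brain. It was 4.98 higher in liver than in kidney (SE 0.14, adjusted p = 1.59e-28) and 5.22 higher than in brain (SE 0.14, adjusted p = 1.53e-29). Between kidney and brain, neither gene was called: the difference was 0.10 for Fabp1 (95% interval -0.13 to 0.33) and 0.24 for Fabp2 (-0.05 to 0.52).

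Because Fabp1 and Fabp2 shared this order of tissues, the 250 bases before their start sites are shown, from RefSeq on GRCm38.p6. The set of promoter windows used held 5 of the 7 members, without Fabp4 and Fabp5. The Fabp1 stretch is chr6:71199629-71199878 on the plus strand and the Fabp2 stretch chr3:122894822-122895071 on the plus strand, each written 5′ to 3′. Capitals mark, on either strand, the nuclear receptor half-site AGGTCA, printed here as its reverse complement, bound by receptors such as PPARs and HNF4, and the half-site GTTAAT of HNF1, a hepatocyte transcription factor.
Fabp1: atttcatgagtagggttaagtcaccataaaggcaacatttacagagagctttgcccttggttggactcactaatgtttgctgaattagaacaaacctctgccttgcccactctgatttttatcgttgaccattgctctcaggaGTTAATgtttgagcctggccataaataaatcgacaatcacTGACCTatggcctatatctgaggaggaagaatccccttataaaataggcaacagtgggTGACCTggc
Fabp2: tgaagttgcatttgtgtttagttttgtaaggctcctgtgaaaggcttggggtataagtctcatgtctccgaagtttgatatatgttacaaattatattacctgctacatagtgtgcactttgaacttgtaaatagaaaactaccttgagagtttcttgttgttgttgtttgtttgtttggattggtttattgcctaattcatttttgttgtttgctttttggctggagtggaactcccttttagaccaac
The Fabp1 window held 2 matches to AGGTCA, beginning 67 and 9 bases before the start site, and 1 to GTTAAT beginning 107 bases before it. The Fabp2 window held no match to either set of letters, and the same was true of Fabp3 and Fabp6. The Fabp7 window, of a gene that was highest in brain, held 1 match to AGGTCA, at position -171 from its start site. Of the 32851 RefSeq promoter windows of this length, 14% held AGGTCA and 6.43% held GTTAAT on at least 1 strand. The motifs do not overlap, and a match is a match of letters, not a measured binding site.

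Fabp3, the heart and muscle carrier, lay at 9.25 to 9.73 in kidney, 8.87 to 9.25 in brain and 6.06 to 7.38 in liver. On the Control diet it was lower in liver than in kidney (log2 fold change -2.86, SE 0.14, adjusted p = 1.11e-20) and than in brain (-2.46, SE 0.14, adjusted p = 6.96e-19). Kidney exceeded brain by 0.41 (SE 0.14, adjusted p = 0.0109), short of the fold threshold. Fabp4, the adipocyte carrier, was highest in kidney at 8.06 to 8.48, lower in liver at 6.61 to 7.49 and lowest in brain at 4.81 to 5.48. Its kidney level on the Control diet was 2.85 above brain (SE 0.12, adjusted p = 3.03e-23), and its liver level was below kidney (-0.92, SE 0.12, adjusted p = 1.59e-08) and 1.93 above brain (SE 0.12, adjusted p = 8.1e-18). The 12 adipocyte markers had a mean level of 6.73 to 6.92 in kidney, 6.34 to 6.71 in liver and 5.66 to 5.88 in brain. The 13 endothelial markers had means of 8.29 to 8.47, 7.72 to 8.03 and 7.28 to 7.43 in the same tissues. The means of both lists thus ran in the order of Fabp4. A list mean does not show which of its genes set the order, or in which cells. The part of adipocytes or endothelium in the order of Fabp4 was not tested.

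Fabp7, the radial glia and astrocyte carrier, was highest in brain at 9.58 to 10.62, against 7.79 to 8.56 in kidney and 7.37 to 8.25 in liver. On the Control diet, liver was below brain (log2 fold change -2.34, SE 0.13, adjusted p = 6.63e-19) and so was kidney (-1.62, SE 0.13, adjusted p = 6.24e-14). The 13 astrocyte and radial glia markers had a mean of 9.01 to 9.38 in brain, 7.6 to 7.7 in kidney and 7.56 to 7.74 in liver. Between liver and kidney the difference of Fabp7 was -0.72 (SE 0.13, adjusted p = 1.36e-05), close to the threshold. It was -0.58 without Control pool C of liver, -0.64 without Control pool C of kidney and -0.50 on pools A and B alone, and was then no longer called. Fabp6, the ileal bile acid carrier, lay between 4.48 and 5.56 on every array, above 11.5% to 16.0% of genes. Its liver level exceeded kidney by 0.52 (SE 0.12, adjusted p = 0.000345) and brain by 0.59 (SE 0.12, adjusted p = 3.76e-05), neither of which reached the fold threshold.

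Within tissues, 18 comparisons of diets were made, 8 in liver and 5 each in kidney and brain, which gave 126 pairs of a member and a comparison. Only 4 of the 126 were called, and all 4 were Fabp5 in the liver against Control. In liver, 1 of 7 members was called for HCD against Control (0.245% of all genes called), 1 of 7 for HCD+Gl-1 (0.322%), 1 of 7 for HCD+Gl-2 (0.584%) and 1 of 7 for HCD+Sim (0.358%), each against Control. These 4 comparisons share the Control arrays. None of the 7 was called for HCD+Gl-1 (0.163% of all genes), HCD+Gl-2 (0.303%) or HCD+Sim (0.258%) against HCD, nor for HCD+Gl-2 against HCD+Gl-1 (0.172%).

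Fabp5, the epidermal type, binds long-chain fatty acids and carries ligands to PPAR beta/delta. Its liver values in pools A, B and C were 9.3, 9.38 and 9.32 on Control and 7.83, 8.01 and 7.46 on HCD. They were 8.27, 8.46 and 7.99 on HCD+Gl-1, 8.02, 8.39 and 7.45 on HCD+Gl-2 and 7.69, 8.03 and 7.54 on HCD+Sim. All 12 arrays of cholesterol-fed mice (7.45 to 8.46, median 8) lay below the 3 Control arrays (9.3 to 9.38), with a gap of 0.85 between the groups. The 4 cholesterol groups overlapped one another.

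The mean fell by 1.57 from Control to HCD (log2 fold change -1.57, SE 0.14, adjusted p = 8.65e-10), to 33.7% of the Control level. On HCD+Gl-1 it was 46.8% of Control (-1.10, SE 0.14, adjusted p = 4.52e-06), on HCD+Gl-2 38.4% (-1.38, SE 0.14, adjusted p = 1.23e-08) and on HCD+Sim 33.4% (-1.58, SE 0.14, adjusted p = 8.98e-10). Of the 22080 genes, 5 had a lower estimate than Fabp5 for HCD against Control, and none had a lower estimate for HCD+Sim against Control. Each of the 4 falls was called under all alternative settings and after leaving out any single array, with values for HCD between -1.69 and -1.42 and adjusted p between 1.63e-11 and 0.0025.

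**Figure D2:**
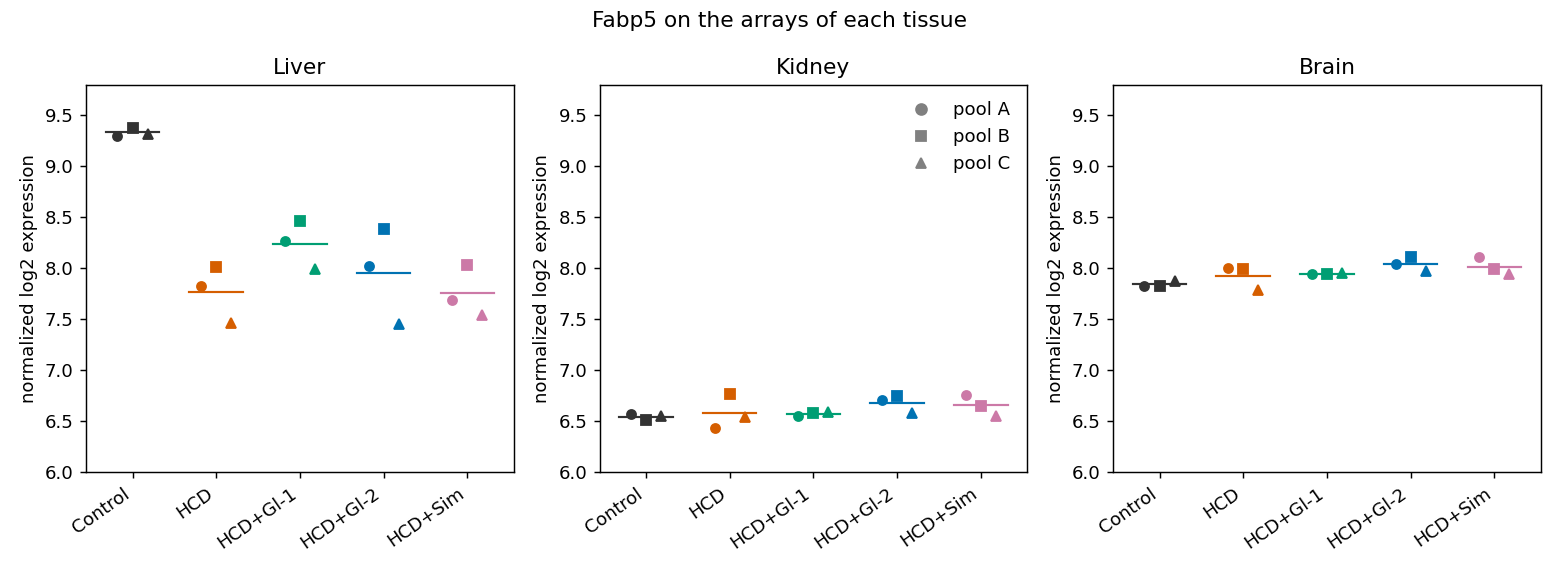
Normalized log2 expression of Fabp5 (y axis, the same scale in each panel) by diet group (x axis) in liver, kidney and brain. Symbols mark pools A, B and C and lines the group mean. In liver the Control arrays sit at 9.3 to 9.38 and all others at 8.46 or below; in kidney and brain the diets lie within 6.43 to 6.77 and 7.79 to 8.11.

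The additions to HCD left Fabp5 well short of the Control level. Against HCD it was 0.47 higher on HCD+Gl-1 (95% interval 0.19 to 0.76, adjusted p = 0.0574), 0.19 higher on HCD+Gl-2 (-0.10 to 0.47, adjusted p = 0.642) and differed by -0.01 on HCD+Sim (-0.30 to 0.27, adjusted p = 0.989). None of these was called, and the intervals leave room for a difference of up to 0.76 for HCD+Gl-1. The extracts from mushrooms grown with and without acetylsalicylic acid, at the same 1% of the diet, gave a Fabp5 difference of -0.29 for HCD+Gl-2 against HCD+Gl-1 (-0.57 to 0, adjusted p = 0.247), with overlapping arrays. Both values of HCD+Gl-2 moved with single arrays. Without its pool C, the lowest Fabp5 array in liver, the difference of Fabp5 from HCD was 0.44 (adjusted p = 0.0976) and that from HCD+Gl-1 -0.04, and without pool B of HCD+Gl-2 they were -0.03 and -0.50 (adjusted p = 0.0383). Leaving out HCD pool C gave 0.03 for HCD+Gl-2 and 0.32 for HCD+Gl-1 against HCD.

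In kidney and brain Fabp5 did not follow the liver. The 15 kidney arrays lay at 6.43 to 6.77 and the 15 brain arrays at 7.79 to 8.11, and HCD differed from Control by 0.04 in kidney (95% interval -0.25 to 0.32) and by 0.08 in brain (-0.20 to 0.36). The liver response minus the kidney response to HCD was called (difference of log2 fold changes -1.61, SE 0.20, adjusted p = 6.43e-06), and Fabp5 was the only member called there, where 0.149% of all genes were called. Against brain the difference was -1.65 (SE 0.20, adjusted p = 3.24e-06), again for 1 of 7 members, where 0.190% of all genes were called. The order of tissues changed with it: the liver mean was 1.49 above the brain mean on Control, and stood at -0.16 relative to it on HCD, -0.26 on HCD+Sim and -0.08 on HCD+Gl-2. On HCD+Gl-1 it was still 0.30 above brain.

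**Figure D3:**
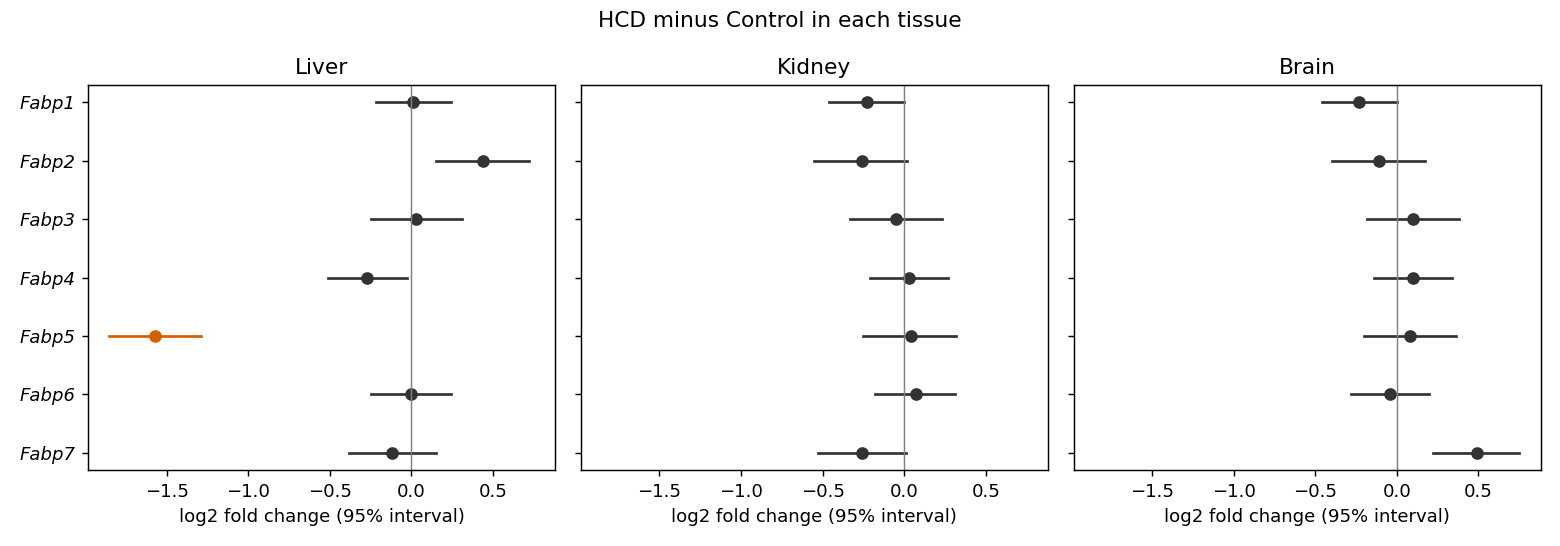
Log2 fold change of HCD against Control (x axis) for the 7 members (y axis) in liver, kidney and brain, with 95% intervals as lines; orange marks a called gene. Only Fabp5 in liver, at -1.57, was called.

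Other genes in the liver arrays moved with Fabp5. Of 22 squamous epithelium markers, 3 were called lower on HCD than on Control, and the same 3 in each of the other 3 comparisons with Control: the mucosal keratins Krt4 (-1.59 for HCD) and Krt13 (-1.19) and the cornified envelope gene Sprr3 (-1.18). Krt4 read 7.8, 8.63 and 5.82 in Control pools A, B and C and 5.53 to 6.1 on the 12 other arrays, and Krt13 read 6.8, 7.72 and 6.02 in the same Control pools. The mean of the 22 markers was 6.38, 6.62 and 6.13 in Control pools A, B and C and 5.96 to 6.2 on the other arrays. Fabp5 read 9.3 to 9.38 in the same 3 pools. Without Control pools A and B, its difference between HCD and Control was -1.56, in a fit chosen after seeing the data that leaves only Control pool C. The part of squamous genes in the Fabp5 result was not tested.

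The 21 striated muscle and heart markers also ran lower with Fabp5 on 3 of the 4 cholesterol diets. Their mean was 6.75 to 6.95 on Control, against 6.42 to 6.59 on HCD, 6.34 to 6.43 on HCD+Gl-1 and 6.36 to 6.54 on HCD+Gl-2, without overlap. On HCD+Sim, where Fabp5 differed from HCD by -0.01, it was 6.59 to 7.49. Called lower on HCD than on Control was the fast myosin Myh1 (-1.03, adjusted p = 0.0134). On HCD+Gl-1 the genes called lower than Control included Myh1 (-1.32), skeletal actin Acta1 (-1.24), the calcium pump Atp2a1 (-1.05) and the fast troponin Tnnc2 (-0.81), and on HCD+Gl-2 the same genes differed by -1.04, -1.04, -1.08 and -0.86. HCD+Sim against Control instead called Myh4 higher (0.84). The part of muscle genes in the Fabp5 result was not tested.

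The 15 measured macrophage and Kupffer cell markers had a mean of 8.34 to 8.51 on Control and 8.18 to 8.24 on HCD, with none called in that comparison. On HCD+Gl-1 it was 8.16 to 8.38, on HCD+Gl-2 8.24 to 8.39 and on HCD+Sim 8.3 to 8.56, each overlapping Control. Of the 6 clock genes of the early phase, the mean was 7.97 to 8.09 on Control and 7.5 to 7.82 on the other diets, and of the 11 of the late phase it was 8.71 to 8.99 on Control and 9 to 9.6 on the others. The clock transcription factor Npas2 was called lower than Control on HCD+Gl-2 (-1.44), HCD+Gl-1 (-1.29) and HCD+Sim (-0.92). The clock repressor Ciart was called higher than Control on the same 3 diets (1.57, 0.91 and 0.74). In HCD against Control, where Fabp5 fell by 1.57, none of the 17 clock genes was called. The list means on HCD, 7.75 to 7.82 early and 9.09 to 9.25 late, did not overlap Control. Over the 15 liver arrays Fabp5 correlated at r = 0.63 with the early list, -0.64 with the late and 0.45 with the macrophage list. The squamous and muscle lists correlated with it at 0.66 and 0.2, all as a description. The part of these genes in the Fabp5 result was not tested.

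The genes most like Fabp5 over the 15 liver arrays, of 279 whose group means in liver spanned over 0.7, were Itih5 (Pearson r = 0.867), G6pdx (0.864), Gpr110 (0.854), Tff3 (0.847) and Hopx (0.819). The arrays share diet groups and processing, and these correlations only describe likeness. Because the genes were picked for likeness to Fabp5 on the same arrays, their calls against Control are not a separate result. G6pdx, glucose-6-phosphate dehydrogenase of the pentose phosphate pathway, was called lower than Control in all 4 cholesterol groups, most on HCD+Gl-2 (-1.28), then HCD+Sim (-1.04), HCD+Gl-1 (-0.92) and HCD alone (-0.90). Tff3, a mucosal trefoil peptide, was called on HCD (-0.89), as was Hopx, a homeodomain-only protein (-0.73). By rank correlation, 2 of the 5, Tff3 and G6pdx, were again among the 5 most alike.

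In the RefSeq annotation Fabp5 is followed on its chromosome by Pmp2, Fabp9, Fabp4 and Fabp12, which are also members of the carrier family. None of the 4 neighbours was called on HCD. Fabp4, the adipocyte member, differed from Control by -0.27 (95% interval -0.51 to -0.03, adjusted p = 0.393). Pmp2, a myelin lipid carrier, read 4.36 to 5.5 over the liver arrays, Fabp9 4.01 to 4.64 and Fabp12 5.12 to 5.7, and none was called in any diet comparison. Of the 8 measured genes of other intracellular lipid carriers, which include these 3, 0 were called in the 18 comparisons within tissues. For HCD against Control their liver median was -0.03, against -0.01 for all genes.

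Fabp1 stayed within 0.29 between its highest and lowest liver group mean. HCD differed from Control by 0.01 (95% interval -0.22 to 0.24), and in the 8 liver comparisons no difference of Fabp1 exceeded 0.21 in size. Its highest group was HCD+Gl-1, at 12.42, 12.41 and 12.42 in pools A, B and C, and its lowest HCD+Sim, at 12.22, 12.2 and 11.95.

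Fabp2 lay higher in liver in each cholesterol group than on Control. It read 9.72, 9.54 and 9.93 in Control pools A, B and C, 10.19, 9.98 and 10.34 on HCD, 10.21, 10.07 and 10.4 on HCD+Gl-1, 10.16, 10.03 and 10.22 on HCD+Gl-2 and 10.21, 9.83 and 10.47 on HCD+Sim. The arrays of 3 of these groups lay above all 3 Control arrays, while HCD+Sim overlapped them through its pool B. The difference from Control was 0.44 for HCD (95% interval 0.15 to 0.72, adjusted p = 0.135), 0.50 for HCD+Gl-1 (0.21 to 0.78, adjusted p = 0.0388), 0.41 for HCD+Gl-2 (0.12 to 0.69, adjusted p = 0.127) and 0.44 for HCD+Sim (0.16 to 0.73, adjusted p = 0.117). None passed the fold threshold.

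Fabp2 and Fabp5 ran in opposite directions over the 15 liver arrays (Pearson r = -0.80, a description over arrays that share diets and pools). Part of this lay between the pools of a group. Pool C, by the methods the mix of A and B, was above both for Fabp2 in 5 of 5 liver groups, which held for 2.12% of all genes, and below both for Fabp5 in 4 of 5, which held in at least as many groups for 2.64% of all genes. On HCD+Gl-2, Fabp5 in pool C stood at -0.76 relative to the mean of A and B taken on the linear scale. Over all genes of the liver arrays, pool C lay outside the range of A and B in 71.0% of cases, with a median distance from the mix of 0.12. An array that varied at random like A and B would also lie outside their range in most cases.

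**Figure D4:**
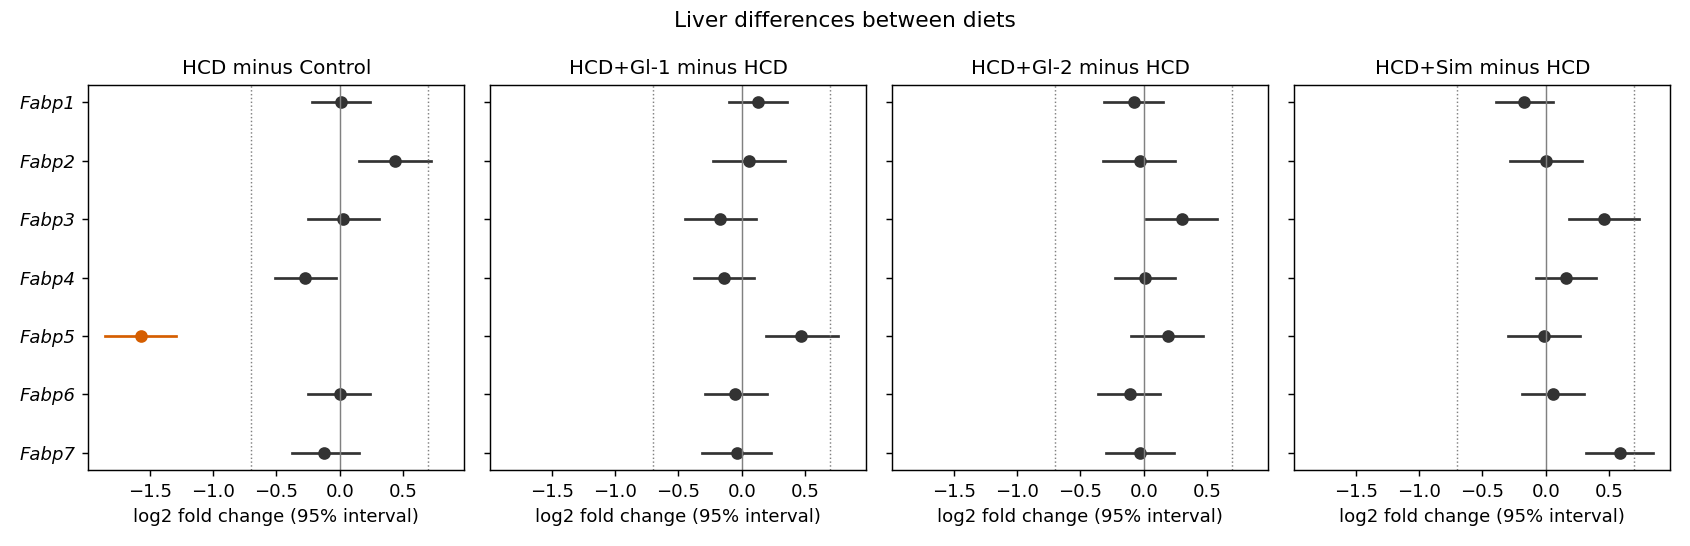
Log2 fold change (x axis) of the 7 members (y axis) in liver for HCD against Control and for each addition against HCD, with 95% intervals as lines and the fold threshold of 0.7 dotted; orange marks a called gene. Against HCD no member was called, and the estimates farthest from 0 were Fabp7 (0.59) and Fabp3 (0.46) on HCD+Sim and Fabp5 (0.47) on HCD+Gl-1.

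Simvastatin went with higher liver values of Fabp7 and, in 2 of 3 pools, of Fabp3, without a call. Fabp7 read 8.25, 8.17 and 8 on HCD+Sim, above its 3 HCD arrays (7.73, 7.37 and 7.55) and its 3 Control arrays (7.79, 7.83 and 7.38). The difference from HCD was 0.59 (95% interval 0.32 to 0.85, adjusted p = 0.0151) and that from Control 0.47 (0.20 to 0.74, adjusted p = 0.0606), both under the fold threshold. In brain, where Fabp7 is highest, HCD+Sim differed from HCD by -0.16 (-0.43 to 0.10).

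Fabp3 read 7.38, 7.21 and 6.45 in HCD+Sim pools A, B and C, against 6.66, 6.53 and 6.48 on HCD. Pool C lay below all HCD arrays and pools A and B above all of them, so the groups overlapped, and the mean difference was 0.46 (95% interval 0.18 to 0.74, adjusted p = 0.103). Without HCD+Sim pool C it was 0.74 and called (adjusted p = 0.000124), on pools A and B of all groups 0.70 and called (adjusted p = 0.00882), and without HCD+Sim pools A and B it was -0.10 (adjusted p = 0.752).

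The same pools A and B had higher values of muscle genes. All 21 striated muscle and heart markers had a positive log2 fold change for HCD+Sim against HCD, as had 62.2% of all genes. Of the 21, 7 were called higher, where 0.258% of all genes were called in either direction. The median of the 21 was 0.54 against 0.03 for all genes. Those called included the sarcoplasmic calcium pump Atp2a1 (1.54), the myosin genes Myl1 (1.27) and Myh1 (1.27) and skeletal actin Acta1 (1.19). Atp2a1 read 8.98, 9.54 and 6.88 in HCD+Sim pools A, B and C and 6.73 to 7.21 on HCD. The mean of the 21 markers was 7.18, 7.49 and 6.59 in the HCD+Sim pools, 6.75 to 6.95 on Control and 6.34 to 6.59 on the other diets. Over the 15 liver arrays the level of this list correlated with Fabp3 at r = 0.58 and with Fabp7 at 0.74, as a description. The macrophage and Kupffer cell list correlated with them at 0.44 and 0.61, and the endothelial list at 0.28 and 0.47. On HCD+Sim the macrophage mean was 8.3 to 8.56, without overlap with HCD (8.18 to 8.24). The endothelial means overlapped, at 7.93 to 8.03 on HCD+Sim and 7.91 to 7.96 on HCD. Without HCD+Sim pools A and B the difference of Fabp7 from HCD was 0.45 (adjusted p = 0.193). Whether muscle tissue, macrophages or endothelial cells in the samples had a part in either gene was not tested.

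**Figure D5:**
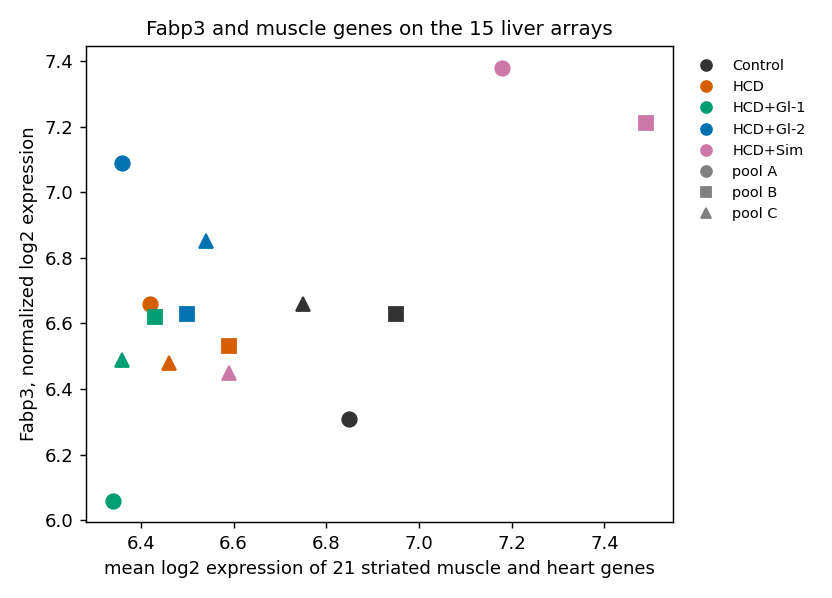
Fabp3 (y axis, normalized log2 expression) against the mean log2 expression of 21 striated muscle and heart genes (x axis) on the 15 liver arrays. Colours mark the diet and symbols the pool; HCD+Sim pools A and B stand apart at 7.18 and 7.49 on the x axis, while HCD+Gl-2 pool A has Fabp3 at 7.09 without a high muscle level.

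Fabp3 was also higher on HCD+Gl-2 (7.09, 6.63 and 6.85) than on HCD+Gl-1 (6.06, 6.62 and 6.49), and these arrays did not overlap. The difference was 0.46 (95% interval 0.18 to 0.74, adjusted p = 0.0488, and 0.0545 with the pool letter as a block), below the fold threshold. Without HCD+Gl-1 pool A this Fabp3 difference was 0.30 (adjusted p = 0.290). The muscle list was at 6.36 to 6.54 on HCD+Gl-2 and 6.34 to 6.43 on HCD+Gl-1. Fabp4 in liver was highest on Control, at 7.18, 7.49 and 7.07, and lowest on HCD+Gl-1, at 6.88, 6.61 and 7.03. The difference was -0.41 (-0.65 to -0.17, adjusted p = 0.0423), again below the fold threshold, and -0.24 without Control pools A and B (adjusted p = 0.496). The adipocyte markers lay at 6.47 to 6.65 on Control and 6.34 to 6.47 on HCD+Gl-1, with 0 of 12 called, and correlated with Fabp4 at r = 0.71 over the liver arrays. The 13 endothelial markers lay at 7.85 to 7.91 on Control and 7.72 to 7.83 on HCD+Gl-1, without overlap (r = 0.51 with Fabp4), and the squamous and muscle lists correlated with it at 0.69 and 0.54. Their part in the Fabp4 values was not tested. Fabp6, whose ligands are bile acids, showed no difference over 0.12 in size in the 8 liver comparisons made.

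Genes that work with the carriers were set beside them. Fatty acids enter the cell through transporters such as Cd36, are released from lipoproteins by lipases such as Lpl and are activated by acyl-CoA synthetases. Of 26 measured genes of this list, 0 were called in liver for HCD against Control, with a median of -0.06 against -0.01 for all genes. Against Control, HCD+Sim called 2 of the 26 higher, Cd36 (0.73, adjusted p = 1.73e-05) and Lpl (0.73, adjusted p = 3.38e-05), whose HCD differences of 0.64 and 0.59 were below the fold threshold. Cd36 read 7.97 to 8.21 on Control and 8.54 to 8.83 on HCD, so these arrays did not overlap.

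Of 12 nuclear receptors and partners, which included the PPARs that carriers bring ligands to, 0 were called in any diet comparison. Pparg, the adipogenic receptor, had the highest liver difference of the list for HCD (0.65, adjusted p = 3.56e-05) and is named after its values were seen. A list of 8 genes of bile acid handling in ileum or liver was set beside the ileal carrier Fabp6. Of these, Cyp7a1, the rate-limiting enzyme of bile acid synthesis in liver, was called higher than Control on HCD+Gl-2 (1.05), on HCD alone (1.02) and on HCD+Gl-1 (0.85), and differed by 0.58 on HCD+Sim. In kidney and brain, none of these lists had a called gene in the comparisons of diets.

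In kidney none of the 7 members was called in the 5 comparisons, with 0.0408% of all genes called for HCD against Control, 0.131% for HCD+Gl-1, 0.335% for HCD+Gl-2 and 0.140% for HCD+Sim against HCD and 0.181% for HCD+Gl-2 against HCD+Gl-1. Fabp7 read 8.4, 8.22 and 8.56 on Control and 8.19, 8.04 and 8.16 on HCD, without overlap, a difference of -0.26 (95% interval -0.53 to 0.01). Fabp3 was higher on HCD+Gl-2 (9.6, 9.57 and 9.73) than on HCD (9.37, 9.25 and 9.41), by 0.29 (0.01 to 0.57, adjusted p = 0.539). Fabp1, near the lower end of the table in kidney, had the member estimate farthest from 0, 0.32 for HCD+Gl-2 against HCD (0.09 to 0.55, adjusted p = 0.248).

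In brain none of the 7 was called either, with 0.0317% of all genes called for HCD against Control, 0.00906% for HCD+Gl-1, 0.0226% for HCD+Gl-2 and 0% for HCD+Sim against HCD and 0.00906% for HCD+Gl-2 against HCD+Gl-1. Fabp7 read 10.16, 10.31 and 9.58 in Control pools A, B and C and 10.42, 10.45 and 10.62 on HCD. The groups did not overlap and the difference was 0.49 (95% interval 0.22 to 0.75, adjusted p = 0.219). Without Control pool C it was 0.27 (adjusted p = 0.339), and without Control pool B 0.63 (adjusted p = 0.0490). Control pool C, the lowest Fabp7 value in brain, also had the lowest mean of the 13 astrocyte and radial glia markers, 9.01. Of 18 olfactory bulb markers, 3 were called higher on HCD than on Control, S100a5 (1.05), Cdhr1 (1.03) and Doc2g (0.86), and the list mean was 6.87 to 7.07 on Control and 7.3 to 7.34 on HCD. Their part in the Fabp7 values was not tested.

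The liver response to each addition was set against that of the other tissues in the same fit. Of the 7 members, 0 were called in liver against kidney for simvastatin (0.254% of all genes), Gl-1 (0.222%) or Gl-2 (0.326%), and 0 in liver against brain for simvastatin (0.0634%), Gl-1 (0.140%) or Gl-2 (0.276%). The farthest from 0 was Fabp7 on HCD+Sim, whose response in liver exceeded that in brain by 0.75 (adjusted p = 0.0958).

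Over all 45 arrays, which the tissues dominate, the 3 genes most like each member by Pearson r were taken by the same rule, and those reported are given here. For Fabp1 they were Fgb, Plg and Ugt2b1 (r = 0.999 each), which encode plasma proteins and a conjugating enzyme of hepatocytes, and for Fabp2 Cyp3a11 (0.998), Hsd17b6 (0.998) and Cyp3a59 (0.997), enzymes of steroid and drug metabolism. For Fabp3 they were Psap, Atp6v1a and Trak2 (0.985 each), for Fabp4 Slc22a18 (0.99), Slc3a1 (0.989) and Acy3 (0.989), and for Fabp5 they included Tpst1 (0.912) and Inhba (0.902). For Fabp6 they were Iqch (0.903), Mir326 (0.901) and Col5a3 (0.901), and for Fabp7 they included Ckap5 and Pip4k2a (0.982 each).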

How the data were processed

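RNA of whole liver, kidney and brain was measured on 45 Affymetrix mouse gene arrays. The authors corrected the scanner intensities with RMA, quantile normalized them with oligo, adjusted batches with ComBat, represented a gene by its probe set of highest interquartile range, and deposited log2 values; the batches, tool versions and genome build are not given in the sources used here. ComBat can narrow the spread between arrays, and 1 probe set per gene cannot show isoforms. The table held 22080 genes, of which 13 have names turned into dates and are not named. Depth does not apply; the number of arrays limits precision.

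Groups were taken from the labels. A limma 3.58.1 model in R 4.3.3 gave each of the 15 groups a mean over all arrays (prior degrees of freedom 7.34, residual 30), with Benjamini-Hochberg adjustment over all genes within each comparison, and its script was tested on simulated data. All adjusted p-values come from limma. Among the comparisons made within a tissue, the pool letter met the pairing criterion (correlated deviations over 0.1 in every pair) in HCD+Gl-1 with HCD+Gl-2 (0.142, 0.265 and 0.189); the labels tie the letter to no shared animals. A comparison of 3 arrays with 3 cannot give an exact two-sided p under 0.1. The members and gene lists were chosen with earlier results of these data known. Named were the members, the genes most like them by Pearson r (3 over all arrays, and 5 in a tissue with a called member) and, per list, at most 4 called genes with the largest change in a comparison with a called member; the olfactory bulb and other muscle genes were named after their values were seen. A few genes named by it are left out here. Not measured were Rbp5, Acsl3 and Adgre1. Alternatives are given below. Plots used matplotlib 3.10.9 on Python 3.11.15.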

Additional observations from a re-analysis of the deposited data

Results flagged for a closer look

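The fall of Fabp5 on HCD differed between tissues by a test of the difference itself. The liver response minus the kidney response was -1.61 (SE 0.20, adjusted p = 6.43e-06, 3 arrays per group), and it lay between -1.73 and -1.45 with single arrays left out. The liver response minus the brain response was -1.65 (SE 0.20, adjusted p = 3.24e-06), between -1.77 and -1.50 with single arrays left out. In liver all 3 HCD arrays lay below the 3 Control arrays, and in kidney and brain the arrays overlapped.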

How the results depend on the processing

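The 4 calls of Fabp5 in liver against Control and both tissue differences held under every alternative run: limma with a trend or robust moderation, pools A and B only, dim genes removed, quantile normalization within the tissue, a fit on the tissue or on the compared groups only, adjusted p without a fold threshold, and each array left out. Without a fold threshold, called members went from 0 to 1 for HCD+Sim against HCD (Fabp7). They went from 1 to 3 for HCD+Gl-1 against Control and from 0 to 1 for HCD+Gl-2 against HCD+Gl-1. By the same rule 242, 791 and 870 of all 22080 genes were called in these comparisons, in that order. Counts over all genes are not given here for the fits with arrays left out, pools A and B only included. On pools A and B only, called members went from 0 to 1 for HCD+Sim against HCD (Fabp3, 0.70). They went from 1 to 2 for HCD+Sim against Control (Fabp3, 0.83) and from 0 to 1 for the liver minus brain response to HCD+Sim (Fabp7, 0.82). With single arrays left out, these 3 counts ranged from 0 to 1, from 1 to 2 and from 0 to 1, and the higher count came each time without HCD+Sim pool C (Fabp3, 0.74, 0.77 and 0.75). Chosen after seeing the data, fits without Control pools A and B (Fabp7, 0.75) and without HCD+Sim pools A and B (Fabp2, 0.74) each called 2 for HCD+Sim against Control, with the lone array left assumed to vary like those of the other groups. The cause of these shifts was not tested. No called value changed sign. Uncalled values that did included those of Fabp3 on HCD+Sim without its pools A and B (-0.10 against HCD, -0.08 against Control and -0.09 for the liver minus brain response). With 1 array left out, they also included Fabp5 in liver on HCD+Gl-2 against HCD (-0.03) and on HCD+Sim against HCD (-0.17 to 0.11). Of the 3 genes most like each member, rank correlation shared 0 for Fabp1, Fabp2, Fabp4, Fabp6 and Fabp7, 1 for Fabp3 and 2 for Fabp5.

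The pool letter did not pair most groups: arrays of the same letter had deviations correlated at -0.126 to 0.265 in liver, over 0.1 in 12 of 30 pairs, and in 3 of 30 in kidney and 7 of 30 in brain. With the letter as a replicate block, Fabp5 on HCD against Control was -1.57 (adjusted p = 1.63e-11, and 2.07e-05 with liver arrays only, a fit added after seeing the data), and no call of a member changed, HCD+Gl-2 against HCD+Gl-1 included.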
